A study of Homo sapiens with 45 samples.

Results

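The genes described here are 46 genes of chromosomal DNA replication and of the passage from G1 into S phase. They were chosen by symbol for their role in the pathway, with no threshold on a measured value. Earlier results of these data were known when the choice was made. All 46 are among the 28278 gene names of the main count table, and all 46 passed the filter on low counts that left 14578 genes for testing. They were measured in the established colon cancer line HCT116 after siRNA against HNRNPK, the gene of hnRNP K, a nuclear protein with KH domains that bind single-stranded RNA and DNA. Cells were transfected with siRNA at 25 nM and collected after 72 hours. RNA was sequenced from 4 libraries of cells given the nontargeting siRNA siNTC5 and from 4 libraries of cells given HNRNPK siRNA (siHNRNPK). In both groups replicates 1 and 2 were made with the TruSeq stranded mRNA kit and replicates 3 and 4 with the Stranded mRNA Ligation kit. The labels give a further pair of libraries, called Scramble, under the same nontargeting treatment. These were made with the TruSeq kit from RNA purified with another kit and counted in tables of their own. Their library names carry the tag p7, whose meaning is not stated. No genotype, transgene or drug separates the groups, and nothing in the labels says whether replicates were separate cultures, so p-values measure the spread between these libraries. The same cells were profiled by chromatin immunoprecipitation (ChIP) for lamin B1, H3K9me2, H3K9me3 and H3K27me3, of which 7 domain lists are used here.

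Replication starts from origins that are licensed in G1. The origin recognition complex (ORC), CDC6 and CDT1 load the MCM2-7 helicase on DNA, CDC45 and the GINS complex then activate it, and polymerase alpha-primase begins each new strand before polymerases delta and epsilon extend it on the PCNA clamp. Many of these genes are transcribed at the G1/S boundary by E2F factors, which the retinoblastoma protein restrains until cyclin-dependent kinases release them, and cyclin E is itself an E2F target. Proliferating cancer lines such as HCT116 express the whole set.

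HNRNPK itself was lower in every siHNRNPK library, at 197 ± 45.5 CPM (TMM-normalised read count, ± SD over n = 4) against 889 ± 80.9 in siNTC5 (exact two-sided permutation p = 0.0286, the smallest that 4 against 4 libraries allow). Total counts ranged from 12107280 to 23633851 in the 8 libraries of this comparison and were 59209169 and 55007171 in the Scramble libraries. The members were well covered, with raw counts from 108 to 16617 across members and libraries. Of the markers of colon epithelium EPCAM, CDH1, KRT8, KRT18 and KRT19 were all expressed. PTPRC, CD3E, PECAM1, COL1A2 and ALB, markers of leukocytes, endothelium, fibroblasts and hepatocytes, had at most 12 counts in any of the 8 libraries. COL1A1, a fibroblast collagen gene, had 910 to 1443 counts, CD68 had 279 to 441, VWF 9 to 43 and PDGFRB 4 to 23.

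Promoters are shown first because their sequence was not read in choosing the genes. Many genes of this pathway are E2F targets, so the share with an E2F element is not independent of the choice. RefSeq promoter windows on GRCh38.p14, each running from 250 bases before to 50 bases after an annotated start site, were found for 39 of the 46 members. The E2F element was searched in both strands as TTTCCCGC, TTTGGCGC, TTTCGCGC or TTTGCCGC, forms that can overlap each other on opposite strands. It was found in 19 of the 39 members, or 48.7% (95% exact binomial interval 32.4 to 65.2%). The same forms were in 6.39% of the 11026 tested genes that had a promoter entry and in 3.31% of all 35116 promoter windows. The windows below carry the element in capitals and show 3 members whose RNA was lower after HNRNPK siRNA (MCM2, POLA2 and E2F1) and the 3 element-bearing members whose RNA was higher (MCM3, CDC6 and PCNA). Each is 150 bases, written 5′ to 3′ on the strand of the gene.
MCM2, chr3:127598311-127598460 (plus strand): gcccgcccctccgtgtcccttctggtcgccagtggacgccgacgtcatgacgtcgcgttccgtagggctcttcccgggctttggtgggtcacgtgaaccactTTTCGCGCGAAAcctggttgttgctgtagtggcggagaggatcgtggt
POLA2, chr11:65261862-65262011 (plus strand): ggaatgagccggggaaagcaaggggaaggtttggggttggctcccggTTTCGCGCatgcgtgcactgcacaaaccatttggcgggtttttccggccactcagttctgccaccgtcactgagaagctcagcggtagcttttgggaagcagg
E2F1, chr20:33686336-33686485 (minus strand): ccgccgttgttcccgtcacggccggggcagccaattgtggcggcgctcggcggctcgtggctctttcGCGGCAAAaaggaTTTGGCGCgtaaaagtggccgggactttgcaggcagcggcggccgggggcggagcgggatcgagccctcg
MCM3, chr6:52284693-52284842 (minus strand): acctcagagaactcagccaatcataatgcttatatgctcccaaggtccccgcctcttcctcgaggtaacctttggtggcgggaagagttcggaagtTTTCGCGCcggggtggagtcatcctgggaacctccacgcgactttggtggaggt
CDC6, chr17:40287779-40287928 (plus strand): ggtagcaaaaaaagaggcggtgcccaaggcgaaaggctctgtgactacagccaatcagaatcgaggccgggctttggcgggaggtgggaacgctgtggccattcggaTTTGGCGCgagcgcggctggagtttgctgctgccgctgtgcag
PCNA, chr20:5126573-5126722 (minus strand): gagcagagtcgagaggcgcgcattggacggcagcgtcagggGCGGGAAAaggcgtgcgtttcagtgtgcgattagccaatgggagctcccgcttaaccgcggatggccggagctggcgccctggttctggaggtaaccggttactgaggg

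The element in MCM2 is a pair of copies of TTTCGCGC that overlap on opposite strands just after the start site, and POLA2 and MCM3 hold the same 8 letters on the strand of the gene. E2F1 holds TTTGGCGC on its own strand and TTTGCCGC on the other, CDC6 holds TTTGGCGC, and PCNA holds TTTCCCGC on the opposite strand. The PCNA window belongs to the upstream of its annotated start sites. MCM3 holds a further element, TTTCCCGC, upstream of the bases shown. Identical letters thus stood at genes that were lower and at genes that were higher: of the members with a promoter entry, 12 of the 22 that were lower held the element, as did 3 of the 9 that were higher and 4 of the 8 that did not pass the test. Of the other elements searched in both strands, CCAAT was in 59% of the members and 42.8% of tested genes, the GC box GGGCGG in 74.4% and 75.1%, and the cell cycle homology region, searched as TTTGAA or TTCGAA, in 5.13% and 15.4%. A match of letters is a description of the window and not a bound site.

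**Figure D1:**
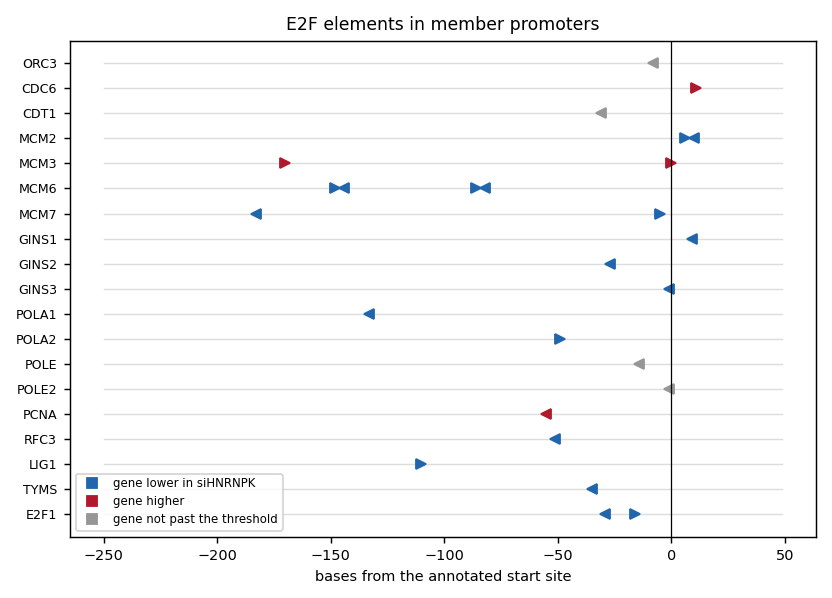
Position of each E2F element in the 19 member promoters that hold one, in bases from the annotated start site (vertical line), with right-pointing marks on the strand of the gene and left-pointing marks on the other strand. Colour gives the call after HNRNPK siRNA, and lower, higher and uncalled genes all appear; MCM6 holds pairs of overlapping copies at separate places.

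The first question was how the set moved after HNRNPK siRNA. Of the 46 members, 27 fell and 9 rose in edgeR's quasi-likelihood test (Benjamini-Hochberg adjusted p under 0.05), and 10 did not pass it. Falls thus covered 58.7% of the members and rises 19.6%. Changes were widespread in these cells, since 70.7% of all tested genes were called, 36.1% lower and 34.6% higher. The median log2 fold change was -0.25 over the members and -0.0098 over all tested genes. It was -0.153 in the 22 members that overlap no other RefSeq gene, of which 11 fell and 5 rose. In the 24 members that overlap one it was -0.402, with 16 falls and 4 rises. The part of shared bases in these differences was not tested. Falls reached further than rises among the members. MCM5 and POLA2, 2 of the 46, had log2 fold changes of -1 or less, a smaller share than the 8.69% of tested genes called there. The highest member, ORC6, stood at 0.50, and the share of tested genes with rises as large as those falls is not reported here. In 15 members every siHNRNPK library was below every siNTC5 library, as in 27.9% of tested genes, and in 4 members (ORC2, ORC4, RFC1 and RFC4) every one was above, as in 27.5%. In bulk RNA a smaller share of cells in S phase and less RNA of these genes per cell cannot be told apart. Against the Scramble controls, described further on, most of these directions turned over, so each fall below is a fall relative to siNTC5.

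**Figure D2:**
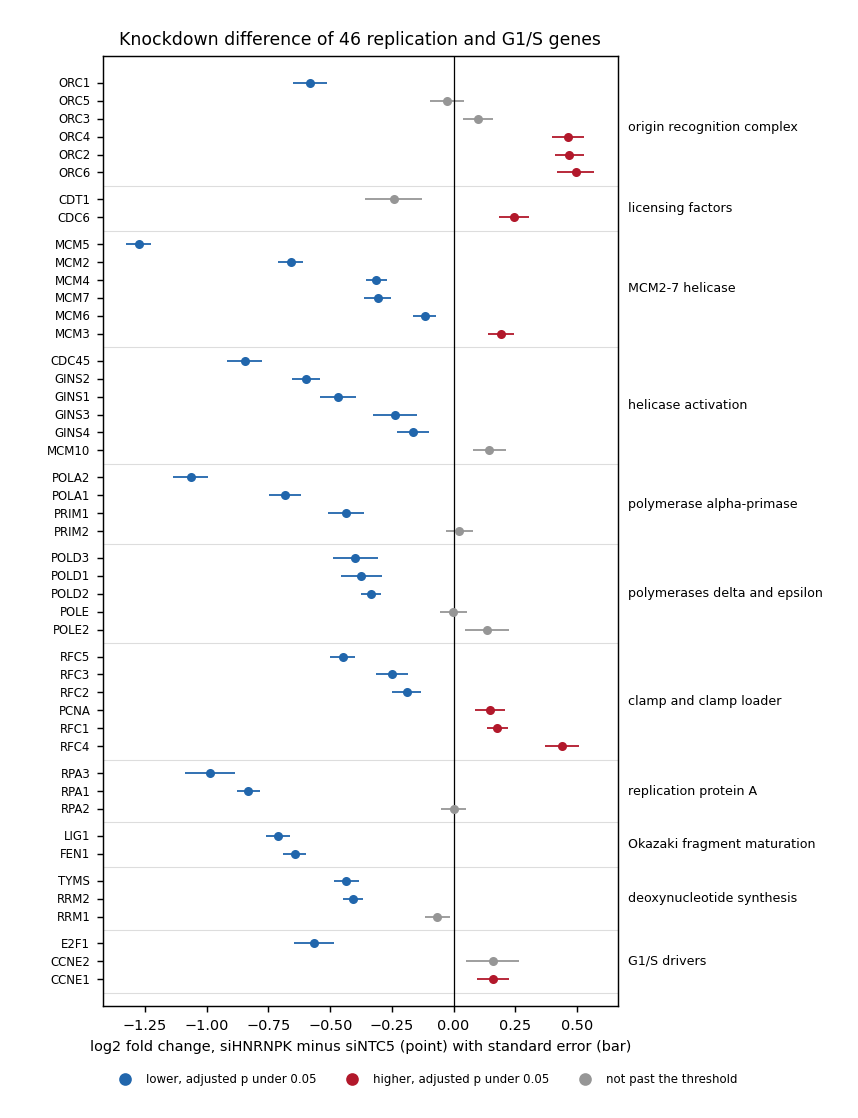
Log2 fold change of each member, siHNRNPK minus siNTC5, with its standard error, grouped by role. Blue points passed the test as lower, red as higher and grey did not pass; the lowest is MCM5 at -1.28 and the highest ORC6 at 0.50.

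In the origin recognition complex ORC2, ORC4 and ORC6 rose, ORC1 fell, and ORC3 and ORC5 did not pass the test. ORC1, the subunit whose level cycles and which carries ATPase activity, was at 61.9, 76.7, 44.6 and 47.4 CPM in siNTC5 replicates 1 to 4 and at 45.4, 43.4, 32.2 and 32.5 CPM in the siHNRNPK replicates. Within each kit both siHNRNPK values of ORC1 were the lower, although TruSeq siHNRNPK and Ligation siNTC5 libraries overlapped (log2 fold change -0.58 ± 0.07, adjusted p = 4.71e-07 by edgeR). ORC6, the smallest subunit, gave 42.1, 49, 29.8 and 30.7 CPM in siNTC5 and 57.4, 57.5, 50.2 and 47.1 CPM in siHNRNPK. Its siNTC5 replicate 2 lay among the siHNRNPK values, and the log2 fold change was 0.50 ± 0.07 (adjusted p = 8.19e-06 by edgeR). ORC2, a core subunit, stood at 60.4, 70.5, 60.6 and 62.4 CPM in siNTC5 and 82.3, 89.6, 91.1 and 89.5 CPM in siHNRNPK. The groups of ORC2 did not overlap (0.47 ± 0.06, adjusted p = 8.54e-07 by edgeR). ORC4, a subunit of the ATPase family, had 50.8, 46.7, 48.4 and 47.1 CPM in siNTC5 and 66.4, 66.7, 73.6 and 59.2 CPM in siHNRNPK, again without overlap (0.46 ± 0.06, adjusted p = 3.18e-06 by edgeR). ORC4 shares bases with ACVR2A and MBD5 in RefSeq, and ORC1 with PRPF38A; reads of such neighbours cannot be told apart where strand was not used in counting, which is not stated. ORC3 and ORC5 had log2 fold changes with 95% intervals of -0.06 to 0.26 and -0.21 to 0.15, on the 5 residual degrees of freedom.

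Of the licensing factors, CDC6, the ATPase that loads MCM2-7 together with ORC, was slightly higher. It was at 143, 169, 111 and 113 CPM in siNTC5 and 164, 170.5, 145 and 149.98 CPM in siHNRNPK. The highest siNTC5 library, replicate 2, exceeded all siHNRNPK libraries but one, and the log2 fold change was 0.24 ± 0.06, adjusted p = 0.00149 by edgeR. In the TruSeq libraries alone it was 0.12 (adjusted p = 0.178 by edgeR) and in the Ligation libraries alone 0.40 (adjusted p = 5.57e-08). CDT1, which brings MCM2-7 to the origin and is held in check by geminin, did not pass the test over all libraries (-0.24 ± 0.12, adjusted p = 0.0674 by edgeR). It is singled out here after its values were seen, because the libraries of the TruSeq and Ligation kits disagreed. CDT1 was at 69.9, 52, 76 and 68.8 CPM in siNTC5 and 40.6, 39.1, 85.7 and 68.8 CPM in siHNRNPK, so that the TruSeq siHNRNPK libraries were the lowest of all and Ligation siHNRNPK replicate 3 was the highest. Within TruSeq its log2 fold change was -0.58 (adjusted p = 0.00138 by edgeR) and within Ligation 0.10 (adjusted p = 0.23).

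Of the 6 subunits of the MCM2-7 helicase, 5 fell and MCM3 rose. MCM5 had the largest fall of the whole set, from 235, 238, 202 and 201 CPM in siNTC5 to 97.1, 91.1, 80.1 and 92.6 CPM in siHNRNPK. Every knockdown library held less than 50% of the lowest control value, and the log2 fold change was -1.28 ± 0.05, adjusted p = 6.29e-14 by edgeR, or 41.3% of control. MCM2 was at 273, 283, 228 and 232 CPM in siNTC5 and 165, 164, 148 and 164 CPM in siHNRNPK. Its groups did not overlap either (-0.66 ± 0.05, adjusted p = 5.33e-10 by edgeR). MCM4 and MCM7 fell less, by 0.31 ± 0.04 and 0.31 ± 0.05 on the log2 scale, and MCM7 shares bases with AP4M1 and with the microRNA genes MIR25, MIR93 and MIR106B. MCM6 was near the threshold (-0.12 ± 0.05, adjusted p = 0.031 by edgeR), a call that is lost without siNTC5 replicate 2 or without siHNRNPK replicate 1 or 2, at adjusted p from 0.0671 to 0.123. MCM3 rose from 401 ± 69.9 to 455 ± 41.2 CPM (0.19 ± 0.05, adjusted p = 0.00284 by edgeR). Subunits of one ring complex were thus at 41.3 to 114% of their control level.

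Of the 6 genes of helicase activation 5 fell and none rose. CDC45, which joins GINS to turn the loaded MCM2-7 into an active helicase, went from 58, 67.3, 42.4 and 44.3 CPM in siNTC5 to 35.8, 35, 21.6 and 25.8 CPM in siHNRNPK. All siHNRNPK values lay under all siNTC5 values (-0.85 ± 0.07, adjusted p = 2.66e-09 by edgeR). The GINS subunits fell to different degrees: GINS2 by 0.60 ± 0.06, GINS1 by 0.47 ± 0.07, GINS3 by 0.24 ± 0.09 and GINS4 by 0.16 ± 0.06 on the log2 scale. Groups of GINS1 and GINS2 did not overlap, while the GINS3 and GINS4 calls are lost when single libraries are left out. For GINS3 these are siNTC5 replicate 2 and siHNRNPK replicate 2 (adjusted p of 0.139 and 0.1 by edgeR), and for GINS4 they are siNTC5 replicates 3 and 4 and siHNRNPK replicates 1 and 3 (adjusted p from 0.0509 to 0.0962). MCM10, a scaffold for helicase activation, did not pass the test (0.14 ± 0.07, adjusted p = 0.06 by edgeR). Without siNTC5 replicate 2 or siHNRNPK replicate 1 it would be called higher, at 0.22 and 0.18.

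Among the polymerase subunits in the set, POLA2 of the initiating enzyme moved most. POLA2, the accessory B subunit of polymerase alpha, was at 42.3, 42.2, 31.4 and 31.1 CPM in siNTC5 and 20.1, 19.9, 15.8 and 14.4 CPM in siHNRNPK. Knockdown libraries of each kit held about the same fraction of their own controls, with log2 fold changes of -1.05 in TruSeq and -1.04 in Ligation libraries (-1.06 ± 0.07, adjusted p = 1.01e-10 by edgeR over both). POLA1, the catalytic subunit, fell by 0.68 ± 0.07 and the primase subunit PRIM1 by 0.43 ± 0.07 on the log2 scale. PRIM2, the large primase subunit, stood at 62.5 ± 4.23 against 63.6 ± 2.23 CPM (SD, n = 4), and its log2 fold change of 0.02 ± 0.05 had a 95% interval of -0.12 to 0.16. Genes of 1 enzyme complex therefore ranged from 47.8 to 102% of control.

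The polymerase delta members fell, and the polymerase epsilon members POLE and POLE2 did not pass the test. Lower were POLD1, the catalytic subunit of delta, by 0.37 ± 0.08, POLD2 by 0.33 ± 0.04 and POLD3 by 0.40 ± 0.09 on the log2 scale. POLD3, the most changed of this role, was at 28.2, 34.2, 19.4 and 24.3 CPM in siNTC5 and 24.3, 21.4, 18.4 and 16.5 CPM in siHNRNPK. Its lowest control, siNTC5 replicate 3, lay within the knockdown values, so the groups overlap (adjusted p = 8.07e-04 by edgeR). POLE, the catalytic subunit of the leading-strand polymerase, stood at 262 ± 36.2 against 263 ± 37.7 CPM (SD, n = 4), with a 95% interval of -0.14 to 0.14 for the log2 fold change. POLE2 gave 0.13 ± 0.09, adjusted p = 0.185 by edgeR, which becomes a called rise of 0.23 without siNTC5 replicate 2.

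The clamp and its loader divided evenly, with PCNA, RFC1 and RFC4 higher and RFC2, RFC3 and RFC5 lower. PCNA, the sliding clamp, was at 235, 236, 198 and 204 CPM in siNTC5 and 224, 235, 264 and 244 CPM in siHNRNPK. Its rise of 0.15 ± 0.06 on the log2 scale (adjusted p = 0.0354 by edgeR) was seen in the Ligation libraries, where it was 0.34, whereas the TruSeq libraries overlapped and gave -0.01 (adjusted p = 0.85). Leaving out any 1 of the 4 Ligation libraries ended the PCNA call, at adjusted p from 0.0964 to 0.23. RFC4, a small subunit of the clamp loader, went from 74.4, 82.9, 64.8 and 61.3 CPM in siNTC5 to 93.8, 93.9, 101 and 94.8 CPM in siHNRNPK without overlap (0.44 ± 0.07, adjusted p = 1.06e-05 by edgeR). RFC5, also a small subunit, moved the other way, from 126, 139, 109 and 114 to 99.2, 94, 84.7 and 79.5 CPM, again without overlap (-0.45 ± 0.05, adjusted p = 1.35e-07 by edgeR). RFC1, the large subunit, rose by 0.18 ± 0.04 on the log2 scale with separate groups.

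Replication protein A coats single-stranded DNA as a heterotrimer, and its subunits did not move alike. RPA1, the large subunit, was at 223, 226, 199 and 214 CPM in siNTC5 and 124, 116, 122 and 122 CPM in siHNRNPK. The siHNRNPK values of RPA1 lay close together and under all controls (-0.83 ± 0.05, adjusted p = 1.08e-11 by edgeR). RPA3, the small subunit, gave 29.2, 26.7, 31.9 and 25.1 CPM in siNTC5 and 16, 16.4, 11.7 and 12.7 CPM in siHNRNPK, without overlap (-0.99 ± 0.10, adjusted p = 5.39e-08 by edgeR). RPA3 shares bases with UMAD1, a gene that was also tested. RPA2, the middle subunit, was at 83 ± 10.2 against 82.9 ± 7.85 CPM (SD, n = 4), and the 95% interval of its log2 fold change was -0.13 to 0.13.

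Both genes of Okazaki fragment maturation fell. LIG1, the ligase that seals nicks between lagging-strand fragments, was at 111, 121, 113 and 113 CPM in siNTC5 and 70, 70.7, 68.9 and 69.4 CPM in siHNRNPK. Replicates of each group hardly differed from each other, and the fall was the same size in the TruSeq and Ligation libraries, at -0.69 and -0.70 (-0.71 ± 0.05, adjusted p = 1.26e-10 by edgeR over both). FEN1, the flap endonuclease, fell by 0.64 ± 0.05 on the log2 scale, with all knockdown libraries under all controls.

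Deoxynucleotide synthesis was lower in TYMS and RRM2. TYMS, thymidylate synthase, stood at 123, 126, 102 and 108 CPM in siNTC5 and 90.7, 84, 81.4 and 83.7 CPM in siHNRNPK, without overlap (-0.43 ± 0.05, adjusted p = 3.20e-07 by edgeR). TYMS overlaps TYMSOS and ENOSF1. RRM2, the small subunit of ribonucleotide reductase that accumulates in S phase, fell by 0.41 ± 0.04, and RRM1, the large subunit, did not pass the test (-0.07 ± 0.05, adjusted p = 0.239 by edgeR).

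The G1/S drivers went apart. E2F1, an activating E2F factor and itself an E2F target, was at 35.9, 34.1, 29.8 and 26.8 CPM in siNTC5 and 25.2, 23.5, 16.3 and 20.6 CPM in siHNRNPK. Every knockdown library of E2F1 was below every control (-0.56 ± 0.08, adjusted p = 4.24e-06 by edgeR). CCNE1, cyclin E1, which activates CDK2, was at 40.3, 45.8, 35.9 and 32.3 CPM in siNTC5 and 46.6, 48.6, 37.7 and 39.5 CPM in siHNRNPK. The groups of CCNE1 overlap and follow the kit, and its rise of 0.16 ± 0.07 (adjusted p = 0.036 by edgeR) is lost when any 1 of 6 libraries is left out (siNTC5 replicates 1 and 4 and each siHNRNPK replicate, adjusted p from 0.05 to 0.129). CCNE2, cyclin E2, was at 10.6, 11, 7.22 and 7.68 CPM in siNTC5 and 10.4, 12, 9.47 and 8.89 CPM in siHNRNPK. It did not pass the test (0.16 ± 0.11, adjusted p = 0.194 by edgeR, 95% interval -0.12 to 0.43), and it overlaps INTS8 and NDUFAF6.

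**Figure D3:**
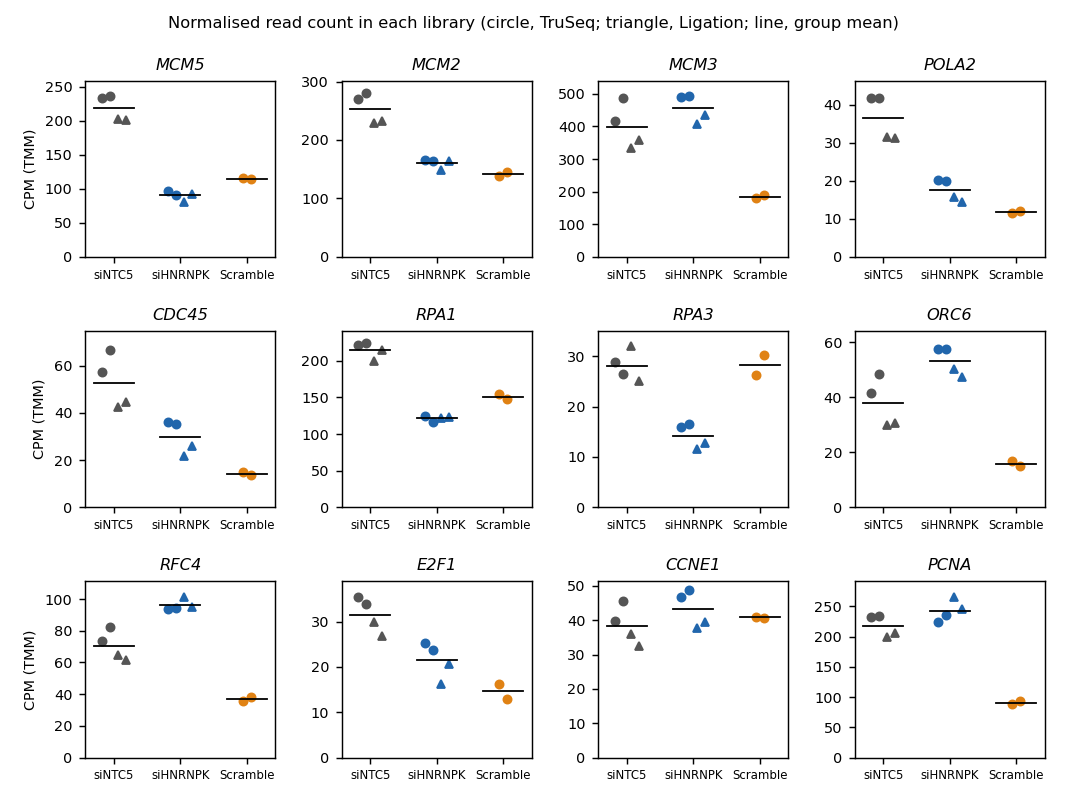
Normalised read counts (CPM, scaled over all 10 libraries) of 12 members in each siNTC5, siHNRNPK and Scramble library, with circles for TruSeq, triangles for Ligation and a line at the group mean. MCM5, RPA1 and RPA3 are lowest in siHNRNPK, RFC4, PCNA and ORC6 are highest there, and MCM2, POLA2, CDC45 and E2F1 are lowest in Scramble.

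Libraries of the TruSeq and Ligation kits differed in these genes by about as much as knockdown and control did. With treatment in the model, 33 of the 46 members (71.7%) were lower in the Ligation than in the TruSeq libraries and 2, CDT1 and POLD1, were higher (edgeR, adjusted p under 0.05). Of all tested genes 27.4% were called for the kit and 13.3% as lower in Ligation. The members' median kit difference was -0.27 on the log2 scale. It was largest in CDC45 at -0.55 ± 0.07, ORC1 at -0.53 ± 0.07 and RFC3 at -0.53 ± 0.07, and in the other direction CDT1 stood at 0.58 ± 0.12 and POLD1 at 0.52 ± 0.08. Anything else that separated replicates 1 and 2 from replicates 3 and 4 cannot be told apart from the kit.

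Libraries of each kit were also fitted alone. The TruSeq libraries alone gave 26 members lower and 5 higher, with a median log2 fold change of -0.32, where 29.2% of all genes tested in that fit were lower and 28.5% higher. The Ligation libraries alone gave 23 lower and 12 higher, with a median of -0.16, where 34.3% of all genes tested were lower and 33.8% higher. Set against the siNTC5 mean of its own kit, the median member was at -0.34 and -0.32 in siHNRNPK replicates 1 and 2 and at -0.18 and -0.11 in replicates 3 and 4. The treatment by kit term was called for none of the 46 members by edgeR, against 20 of all tested genes (0.137%), while 10 members had an unadjusted p under 0.05, as did 11.5% of all tested genes. In 40 of the 46 the term was above zero, that is, the Ligation difference lay higher, and its median was 0.13 (0.0154 over all genes). Closest to a call were PCNA at 0.37 ± 0.08 (adjusted p = 0.0653 by edgeR) and CDT1 at 0.70 ± 0.17 (adjusted p = 0.101). DESeq2 called PCNA, and edgeR with no filter on low counts called PCNA, CDT1 and RFC4.

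The choice of nontargeting control changed the picture for most members. In the Scramble libraries 41 of the 46 members (89.1%) were lower than in siNTC5 and none was higher (edgeR with kit in the model, adjusted p under 0.05, 14263 genes tested), while 68.6% of all tested genes were called, 33.5% lower and 35.1% higher. CDT1 alone had a value above zero, 0.20 ± 0.11 on the log2 scale, and without siNTC5 replicate 1 it was called higher, at 0.44. The members' median difference, Scramble minus siNTC5, was -1.13 on the log2 scale, against 0.0029 over all genes. Summed over members, levels were 5060.1 to 6481 CPM in siNTC5, 4586 to 5168 in siHNRNPK and 3093 to 3175 in Scramble. The Scramble libraries, all TruSeq, thus held the least RNA of this set, siNTC5 the most, and siHNRNPK lay between them. The siHNRNPK libraries that reached the level of Ligation siNTC5 (5060 and 5169 CPM) were the TruSeq ones (5138 and 5168 CPM). Within each kit siHNRNPK lay below siNTC5, which held 5977 and 6481 CPM in TruSeq. Ligation siHNRNPK held 4586 and 4656 CPM.

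CDC45 showed the widest gap between the controls, with 57.4, 66.7, 42.5 and 44.5 CPM in siNTC5 and 15 and 13.6 CPM in Scramble (10-library scaling, log2 difference -2.17 ± 0.09, adjusted p = 5.26e-10 by edgeR). POLE2 at -1.90 ± 0.12, POLA2 at -1.87 ± 0.08 and MCM4 at -1.75 ± 0.06 followed. The 5 members that did not pass were ORC4 at -0.08 ± 0.08, CDT1, POLD1 at -0.16 ± 0.10, RPA3 at -0.01 ± 0.11 and CCNE1 at -0.12 ± 0.08. The difference was of similar size among the 22 members that overlap no other RefSeq gene, of which 19 were lower, with a median of -1.10. Beside it, all 16 G2/M marker genes were also lower in Scramble, with a median of -0.94, and the 5 epithelial markers were all higher. Purification kit, count table, depth and the unexplained tag in the library names differ along with the Scramble libraries. The tables were also counted differently for some names: 184 shared names had 0 counts in all 8 libraries and at least 100 in both Scramble libraries. No member was among them, and E2F2, with 0 to 1 counts in the 8 libraries, had 557 and 397 in Scramble. The part of these in the Scramble difference was not tested, and they cannot be told apart from any difference in the control siRNA.

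**Figure D4:**
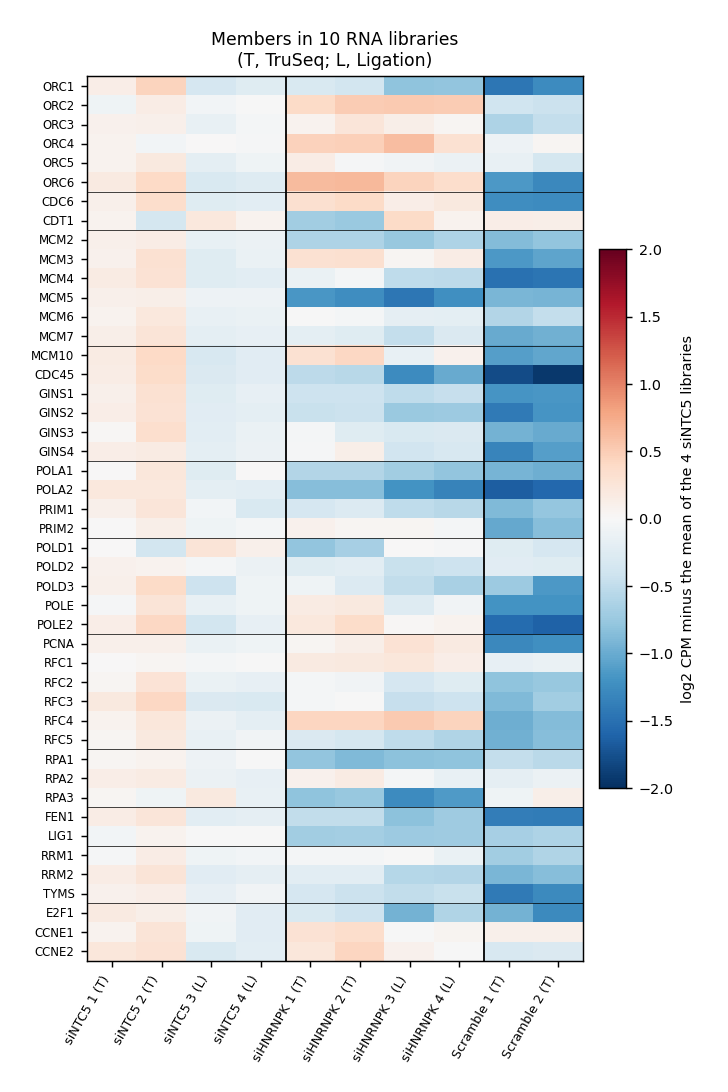
Log2 CPM of the 46 members in 10 RNA libraries, each row set to the mean of its 4 siNTC5 libraries, with roles separated by lines. Blue is lower and red higher; the 2 Scramble columns are blue for 41 called members, and the siHNRNPK columns are blue and red by row.

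Set against Scramble in place of siNTC5, in a 10-library edgeR fit with kit, the same 4 siHNRNPK libraries had 39 members higher (84.8%), 5 lower (10.9%) and 2 not called. Over all 14642 genes of that fit 81.2% were called, 38.8% higher and 42.4% lower, and the median was 0.75 over the members and -0.0386 over all genes. Both comparisons use the same knockdown libraries and are therefore given side by side and not as independent support. MCM5 was -1.28 ± 0.05 minus siNTC5 and -0.26 ± 0.06, adjusted p = 8.68e-04 by edgeR minus Scramble. RPA1 was -0.83 ± 0.05 and -0.29 ± 0.06, adjusted p = 1.53e-04 by edgeR. RPA3 was -0.99 ± 0.10 and -0.92 ± 0.12, adjusted p = 1.76e-06 by edgeR. POLD1 was -0.37 ± 0.08 and -0.34 ± 0.11, adjusted p = 0.00735 by edgeR. For RPA3 and POLD1 the values against each control were close. These 4 were called lower against each control, and the Scramble values of MCM5 (115 and 114 CPM) and RPA1 (154 and 148 CPM) lay between those of siNTC5 and siHNRNPK. The libraries of POLD1 overlapped, with siHNRNPK replicates 1 to 4 at 37.9, 41.1, 65.9 and 64.2 CPM and Scramble at 55.5 and 51.9 CPM (10-library scaling). Its Ligation siHNRNPK libraries lay above both Scramble libraries, which are TruSeq, and above siNTC5 replicate 2 at 50.9 CPM. The fifth member lower against Scramble was CDT1 (-0.64 ± 0.15, adjusted p = 6.03e-04 by edgeR).

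Higher against each control were 9 members, namely ORC2, ORC4, ORC6, CDC6, MCM3, PCNA, RFC1, RFC4 and CCNE1. Of the 13828 genes tested in both fits 25.4% were called higher against each control and 27% lower. Scramble lay below siNTC5 in 45 of the 46 members, these 9 among them, so a rise over siNTC5 goes with a larger value over Scramble and the second value adds no support. ORC4 was 0.46 ± 0.06 minus siNTC5 and 0.50 ± 0.08, adjusted p = 2.36e-05 by edgeR minus Scramble. ORC2 was 0.47 ± 0.06 and 0.89 ± 0.07, and RFC4 was 0.44 ± 0.07 and 1.44 ± 0.09. ORC6 was 0.50 ± 0.07 and 1.94 ± 0.10, the highest value against Scramble, where its libraries held 16.7 and 15.1 CPM. Most members that fell against siNTC5 lay above Scramble: POLA2 was -1.06 ± 0.07 and 0.76 ± 0.09, CDC45 -0.85 ± 0.07 and 1.30 ± 0.10, FEN1 -0.64 ± 0.05 and 0.92 ± 0.06, E2F1 -0.56 ± 0.08 and 0.71 ± 0.11, and MCM2 -0.66 ± 0.05 and 0.26 ± 0.06. LIG1 fell by 0.71 ± 0.05 against siNTC5 and stood at -0.05 ± 0.06, adjusted p = 0.442 by edgeR against Scramble, so it did not pass there, and neither did POLD2. Members in this position cannot be called lower after HNRNPK siRNA without naming the control.

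**Figure D5:**
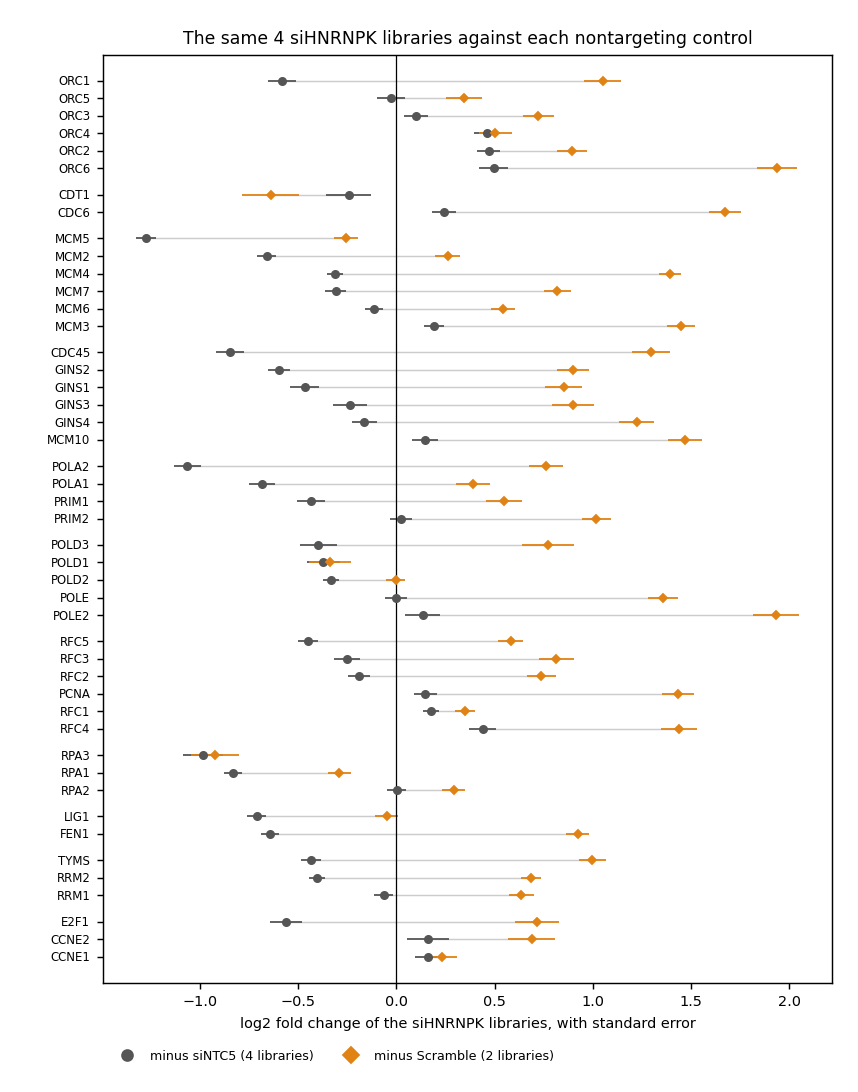
Log2 fold change, with standard error, of the siHNRNPK libraries minus siNTC5 (grey circles) and minus Scramble (orange diamonds) for each member. Both points lie left of zero with a call for MCM5, POLD1, RPA1 and RPA3, and the diamonds of 39 members lie right of zero with a call.

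Other genes of the pathway, taken from lists of general knowledge, were read from the same siHNRNPK minus siNTC5 fit. Of 32 other initiation and fork genes tested, 10 rose, 13 fell and 9 did not pass, with a median log2 fold change of -0.04. POLD4, the small subunit of polymerase delta, was at -1.28 ± 0.11, adjusted p = 4.91e-09 by edgeR, and POLE4, a small subunit of polymerase epsilon, at -1.25 ± 0.14, adjusted p = 2.49e-07. GMNN, geminin, the inhibitor of CDT1, was at -0.21 ± 0.08, adjusted p = 0.0194, a call lost without siNTC5 replicate 2 or siHNRNPK replicate 1. Against Scramble GMNN was higher at 1.05 ± 0.10, adjusted p = 2.06e-08 by edgeR. Of 12 replication checkpoint genes 6 rose, 3 fell and 3 did not pass, with a median of 0.19. HUS1, a subunit of the checkpoint clamp, was at 1.06 ± 0.06, adjusted p = 3.31e-11 by edgeR.

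Other G1/S regulators gave 6 rises and 13 falls among 27 tested, with a median of -0.12. E2F5, a repressor E2F, fell most, at -1.79 ± 0.16, adjusted p = 5.15e-09 by edgeR, and CDKN2C, an inhibitor of CDK4 and CDK6, was at -1.05 ± 0.15, adjusted p = 4.91e-06. Against Scramble CDKN2C stood at -0.07 ± 0.19, adjusted p = 0.724 by edgeR, so its call was lost there. CDK6, a G1 kinase, rose by 1.31 ± 0.05, adjusted p = 1.10e-14. CCND1, cyclin D1, was at -0.76 ± 0.04, adjusted p = 7.43e-12, and CDKN1A, the p21 inhibitor of cyclin-dependent kinases, at -0.50 ± 0.04, adjusted p = 2.27e-09. E2F3, an activating E2F, was higher at 0.64 ± 0.06, adjusted p = 3.32e-08, E2F7, an atypical repressor, was lower at -0.25 ± 0.07, adjusted p = 0.00439, and E2F8 did not pass at -0.07 ± 0.07, adjusted p = 0.429. Against Scramble E2F7 was higher at 0.89 ± 0.09, adjusted p = 4.76e-08 by edgeR, and E2F8 at 1.69 ± 0.10, adjusted p = 1.27e-11. E2F2, with at most 1 count in each of the 8 libraries, was not tested. Among 17 deoxynucleotide supply genes 2 rose and 13 fell, with a median of -0.24. TK2, the mitochondrial thymidine kinase, was at -1.29 ± 0.11, adjusted p = 2.75e-09 by edgeR. Chromatin assembly genes gave 1 rise and 7 falls among 14, with a median of -0.15. The G2/M markers, which peak after replication, gave 6 rises and 1 fall among 16, with a median of 0.03. Of the 5 epithelial markers 4 rose, KRT18 most at 1.39 ± 0.05, adjusted p = 5.83e-15 by edgeR, and KRT19 fell, at -1.29 ± 0.06. Of the 4 markers of other cell types with enough counts, COL1A1 rose by 0.67 ± 0.06 and VWF, an endothelial gene, by 1.47 ± 0.33. Against Scramble VWF stood at 0.51 ± 0.32, adjusted p = 0.15 by edgeR and lost its call. The part of these markers in the differences of the members was not tested. The lists, like the members, sit beside a background in which 36.1% of genes fell and 34.6% rose.

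Few members lay in the called chromatin domains. With a domain counted where it covered at least 50% of a gene body, 2 of the 46 members lay in any of the 7 lists, against 18% of the 14075 tested genes with a RefSeq position. Each is a single list with no replicate and a score whose unit is not stated. MCM3 (chr6:52264015-52284742, GRCh38) had 77.1% of its body in H3K27me3 domains with each siRNA. By the same rule these domains held 10.5% of tested genes in control and 9.04% in depleted cells. The start site of MCM3 lay outside the domain in both lists. MCM3 RNA was at 401 ± 69.9 CPM in siNTC5. POLE (chr12:132623762-132687342, GRCh38) had 100% of its body in a lamin B1 domain of depleted cells and 0% in control cells, where the nearest lamin B1 domain was 72658 bases away. Depleted-cell lamin B1 domains held 2.59% of tested genes, so 1 of 46 is close to the background. POLE RNA did not pass the test for a change. No other member reached 50% in any list, and counting any shared base added ORC5, PRIM2 and RFC5, for 5 members against 25.5% of tested genes. Control lamin B1 domains held 3.09% of tested genes and none of the members by the 50% rule, though ORC5 had 16.7% of its body in one. H3K9me3 domains held 2.96% of tested genes in control and 6.08% in depleted cells, and H3K9me2 domains, listed for control cells, held 1.28%; no member reached 50% in these. The median member lay 1020 kb from the nearest control lamin B1 domain, against 1210 kb for tested genes.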

How the data were processed

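RNA was counted by the authors as whole reads per gene symbol, and these raw counts were deposited as 1 table of 8 libraries and 2 tables of the Scramble libraries. STAR 2.7.1a, featureCounts and Subread 2.0.6 are named for the 8 libraries, and STAR 2.7.1a, featureCounts and DESeq2 for Scramble, per the submitters' processing notes, which list hg38 for the former and both hg19 and hg38 for the latter. Annotation and strand counted are not given in the sources used here. The deposited domain lists, on hg38, carry a score per domain whose unit and caller are not given in the sources used here; the notes name bcl2fastq 2.20, fastp 0.23.2, Bowtie2 2.5.1 and deepTools 3.1.3 for ChIP.

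Counts were filtered with filterByExpr over groups of treatment and kit, scaled by TMM and tested with edgeR 4.0.16 (limma 3.58.1, R 4.3.3) by the quasi-likelihood test, kit in the model, over all 14578 genes, with a Benjamini-Hochberg threshold of 0.05. Errors of fold changes are standard errors from the fit, and those of CPM are SD over 4 libraries. DESeq2 1.42.0 was an alternative, beside other scalings and filters, no kit term, a replicate block, each kit alone, each library left out and other uses of the Scramble libraries. The 8- and 10-library CPM were scaled separately, and Scramble was tested on the 25527 names shared by the tables. Libraries with the same replicate number deviated together (r across genes, which are not independent, of 0.104, 0.374, 0.291 and 0.232 for replicates 1 to 4), but the numbers also mark the kit; with kit removed r was 0.0588 in TruSeq and 0.000475 in Ligation. No pair of libraries agreed within sampling noise (chi-square per degree of freedom of 2.24 or more). The TruSeq pair of siNTC5 stood at 8.18, against 2.30 for the TruSeq pair of siHNRNPK. The Ligation pairs were at 2.24 in siNTC5 and 2.49 in siHNRNPK, and the Scramble pair was at 8.40. Against Ligation replicates 3 and 4 of its group, siNTC5 replicate 2 was at 25.2 and 24.1, and replicate 1 at 9.80 and 10.1.

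On simulated counts for siHNRNPK against siNTC5, with 14247 genes tested, 160 of 200 changed genes were called, 78 of 100 at a fold of 1.5 and 82 of 96 at a fold of 2, and 0.0427% of unchanged genes. The simulation had no kit effect and as many rises as falls. In the data 70.7% of genes were called and 27.4% were called for the kit, so these rates need not carry over. Positions, overlaps and promoters came from RefSeq tables of GRCh38.p14; positions matched all 46 members and 14075 tested genes. Plots and summaries used matplotlib 3.10.9, scipy 1.17.1, numpy 2.4.6 and pandas 2.3.3 in Python 3.11.15.

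The members and lists were chosen with earlier results of these data known. Every-library values are given for the 5 largest rises and falls, the most changed member of each role, E2F1, CCNE1, CCNE2, PCNA and MCM2; listed genes are named where an absolute log2 fold change reached 1, and CDKN1A, CCND1, GMNN, E2F2, E2F3, E2F7 and E2F8 in any case; some listed genes are counted but not reported by name here. CDT1 and the library values of POLD1 were added after the values were seen.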

Additional observations from a re-analysis of the deposited data

Results flagged for a closer look

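Single libraries stood apart from the other 3 of their group in 2 of 94 groups of 4 libraries examined, by a gap to the nearest library above Dixon's 95% critical value. Chance flags about 1 in 20 groups where the 4 libraries are alike. Here each group mixed the TruSeq and Ligation kits, and genes of a library are not independent. That rate therefore need not hold here. MCM2 in siHNRNPK replicate 3 was at 148.4 CPM, with the other siHNRNPK libraries at 163.6 to 164.7. RFC4 in the same library was at 101.2 CPM, with the others at 93.82 to 94.85. Without siHNRNPK replicate 3 the log2 fold changes were -0.66 for MCM2 and 0.38 for RFC4, and both kept their calls.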

How the results depend on the processing

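Leaving out each library in turn gave 33 to 37 called members (7 to 11 higher, 25 to 27 lower), a median log2 fold change from -0.29 to -0.22, and an HNRNPK difference from -2.27 to -2.15. The replicate block in place of kit gave 38 called members, 10 higher and 28 lower, and changed no other call than the 2 it added. Without the kit term 24 members were called, 5 higher, with 14 initiation and fork genes and 9 deoxynucleotide supply genes. The shares of all genes called without the kit term, with the replicate block or with a library left out are not reported here. Whether these counts moved with the whole table therefore cannot be read from them. TruSeq libraries alone gave 5 members higher, and PCNA at -0.014; Ligation libraries alone gave GMNN at 0.011. A minimum absolute log2 fold change of 0.5 left 12 called members, 12 lower and 0 higher, and one of 1 left 2, 2 lower and 0 higher. Just under the cutoff of 0.5 lay the rises of ORC6 at 0.495, ORC2 at 0.469, ORC4 at 0.462 and RFC4 at 0.440. The lack of rises there thus depends on the cutoff. Of all tested genes 8.69% were called at -1 or less, and the share at 0.5 is not reported here.

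With Scramble added to the controls 11 members were called, 5 higher and 6 lower, with a median of 0.023. The share of all genes called in that fit is not reported here. Called genes were then 6 of initiation and fork, 11 G1/S regulators, 6 of deoxynucleotide supply, 3 of chromatin assembly and 4 of the checkpoint, and the sign turned for MCM4 (0.05), MCM6 (0.057), GINS3 (0.037), GINS4 (0.157), RFC2 (0.043), RFC3 (0.01), E2F7 (0.025) and GMNN (0.076). With Scramble in place of siNTC5, 39 were higher and 5 lower with a median of 0.75. The sign then turned for ORC1 (1.05), ORC5 (0.34), MCM2 (0.26), MCM4 (1.39), MCM6 (0.54), MCM7 (0.82), CDC45 (1.30), GINS1 (0.85), GINS2 (0.90), GINS3 (0.90), GINS4 (1.22), POLA1 (0.39), POLA2 (0.76), PRIM1 (0.55), POLD3 (0.77), POLE (1.36), RFC2 (0.74), RFC3 (0.81), RFC5 (0.58), FEN1 (0.92), RRM1 (0.64), RRM2 (0.68), TYMS (1.00), E2F1 (0.71), E2F7 (0.89), E2F8 (1.69) and GMNN (1.05). The cause was not tested.

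The kit interaction was called for 3 members with no filter and 1 by DESeq2. For Scramble minus siNTC5 the median was -1.21 with upper-quartile scaling, -1.09 with no filter (1 member higher), -0.97 with no kit term, and -1.31 with unscaled totals, an alternative chosen after seeing the data. Over left-out libraries it ranged from -1.18 to -1.03, with 0 to 1 members higher. Members in domains were 5 by any overlap and, of the 39 with a promoter entry, 4 by start site (ORC5, POLE, PRIM2 and RFC5, without MCM3), against 18.9% of tested genes by start site. Apart from settings that use Scramble, 2 of the 37 reversals among named genes remained. Precision is limited by 4 libraries a group, by kit, which cannot be told apart from the replicate numbers, and by single domain lists of unknown depth.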
